A study of Mus musculus with 15 samples.

Results

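The genes described here are 7 that encode immunity-related GTPases (IRGs), namely *Irgm1*, *Irgm2*, *Igtp*, *Iigp1*, *Tgtp1*, *Tgtp2* and *Ifi47*, together with 2 others of the interferon response. These are *Irf1*, a transcription factor, and *Ido1*, which encodes the tryptophan-degrading enzyme indoleamine dioxygenase. The 9 genes were taken by symbol as genes known to be induced by interferon gamma, out of 32544 symbols in the count table. They and the gene lists used below were chosen with earlier results of these data known. Their counts called, and the shares of all genes given beside them, are therefore descriptive only. All 9 passed the filter on low counts and were among the 17477 genes tested.

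The libraries were total RNA sequencing of whole mouse colon in experimental colitis, from mice aged 8 to 12 weeks. Telomerase reverse transcriptase (*Tert*) was intact in the TERT+/+ mice (WT), carried an enzymatically inactive form by the series text in the TERTVAA mice (VAA), and was knocked out in the TERT-/- mice (KO). Colitis was induced with dextran sulfate sodium (DSS), which damages the lining of the colon, at 3% in drinking water over 4 days. A further 4 days on water without DSS followed, and colon was collected on day 8. Each genotype had 2 untreated and 3 DSS libraries, 15 in all. The labels do not state that the samples of a group came from separate animals, so the p-values below rest on the spread between these samples. Neither the strain background nor the exact changes to the gene in VAA and KO are known from the labels.

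Interferon gamma binds a receptor of the *Ifngr1* and *Ifngr2* products, and its signal reaches GAS elements in the DNA and induces *Irf1*. IRF1 in turn binds interferon-stimulated response elements (ISREs), and many target genes carry both kinds of site. Among the IRGs, the products of *Irgm1*, *Irgm2* and *Igtp* act as regulators on host membranes, and those of *Iigp1*, *Tgtp1*, *Tgtp2* and *Ifi47* as effectors loaded onto the vacuoles of intracellular pathogens. IDO1 opens the kynurenine pathway of tryptophan breakdown and is known to be induced in inflamed intestine.

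Promoter windows of RefSeq on GRCm38.p6, 250 bases before to 50 after each start, were matched for 7 of the 9 genes. No window was matched for *Iigp1* or *Ido1*. Excerpts of 80 bases are printed 5′ to 3′ on the gene's own strand to show how similar these members are where interferon-driven factors could bind. Capitals mark matches to GAS (TTCNNNGAA) and to the ISRE core (GAAA, any 2 bases, GAAA), both searched on both strands. The excerpts lie at chr11:48871396-48871475 (minus strand) for *Irgm1*, chr11:58214877-58214956 (plus) for *Irgm2* and chr11:58199486-58199565 (plus) for *Igtp*. Those of *Tgtp1*, *Tgtp2* and *Irf1* lie at chr11:48992280-48992359 (minus), chr11:49064239-49064318 (minus) and chr11:53769899-53769978 (plus).
Irgm1: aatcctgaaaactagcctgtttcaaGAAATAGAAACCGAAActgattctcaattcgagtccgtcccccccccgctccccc
Irgm2: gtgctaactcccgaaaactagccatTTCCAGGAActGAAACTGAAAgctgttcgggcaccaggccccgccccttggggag
Igtp: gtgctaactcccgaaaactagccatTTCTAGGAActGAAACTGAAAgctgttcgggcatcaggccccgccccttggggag
Tgtp1: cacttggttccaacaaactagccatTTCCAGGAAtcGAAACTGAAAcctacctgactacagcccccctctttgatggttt
Tgtp2: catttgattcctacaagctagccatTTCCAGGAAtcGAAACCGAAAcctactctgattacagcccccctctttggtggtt
Irf1: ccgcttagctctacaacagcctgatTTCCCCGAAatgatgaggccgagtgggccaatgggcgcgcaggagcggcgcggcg

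*Irgm2*, *Igtp*, *Tgtp1* and *Tgtp2* each held a GAS match followed after 2 bases by an ISRE core. The GAS match began 75, 45, 88 and 81 bases before the annotated start, in that order. *Irgm1* held 2 overlapping ISRE cores and no GAS match, *Irf1* a GAS match 90 bases before its start and no ISRE core, and the *Ifi47* window neither. A second *Irf1* window, at another start, held neither. GAS was found in 8.3% of all 32851 windows of 300 bases, the ISRE core in 3.44% and both in 0.454%. The joined form, a GAS match, any 2 bases and an ISRE core, was searched with the spacing seen in these 4 members. It was found in 5 of the 32851 windows, 0.0152%. Besides these 4 members it was present in *Gm12185*, another gene of the IRG family. The 5 are related genes whose flanking sequence is partly shared, and a match describes the letters in the window only.

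All 15 libraries had between 10.6 and 17.5 M counts. *Tert* had 23 to 40 counts in WT libraries, 7 to 29 in VAA and 0 or 1 in KO. Summed epithelial markers stood at 10130 to 18250 CPM (counts scaled to a library of 1 M) in every library, with none of the 10 markers at 0. Among DSS libraries these sums were 16010 to 18250 CPM in KO and 10130 to 13160 CPM in WT and VAA. Smooth muscle markers all fell in DSS (6 of 6), from summed levels of 2837 to 5196 CPM untreated to 391 to 1683 CPM. VAA DSS replicate 3 stood apart with the highest fibroblast sum, 3306 CPM against 792 to 1959 CPM elsewhere. By *Ddx3y*, WT untreated replicate 2 and KO untreated replicate 2 were male and the other 13 libraries female.

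Transcripts of interferon gamma itself were scarcely detected. *Ifng* had 0 counts in each of the 6 untreated libraries, and 44, 12 and 4 counts in the WT DSS libraries. It had 6, 30 and 0 counts in VAA DSS and 1, 5 and 6 in KO DSS. Against a floor of 3 counts per untreated group, pooled *Ifng* in DSS was 13.5-fold higher in WT, 6.96-fold in VAA and 2.88-fold in KO. These values are lower bounds for counting error in the untreated libraries only, with the DSS counts taken as observed. The bounds in WT and VAA rest largely on single libraries. In KO the bound ran from 2.1-fold to 3.8-fold with each DSS library left out in turn. In WT the bound for *Ifng* was 5.24-fold without WT DSS replicate 1 and 20.6-fold without WT DSS replicate 3, and in VAA it was 1.90-fold without VAA DSS replicate 2. *Ifng* was the only one of 7 interferon ligand genes with enough counts to test. It was called higher in WT and over genotypes (edgeR adjusted p = 0.0082 over genotypes) and did not pass in VAA or KO.

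**Figure D1:**
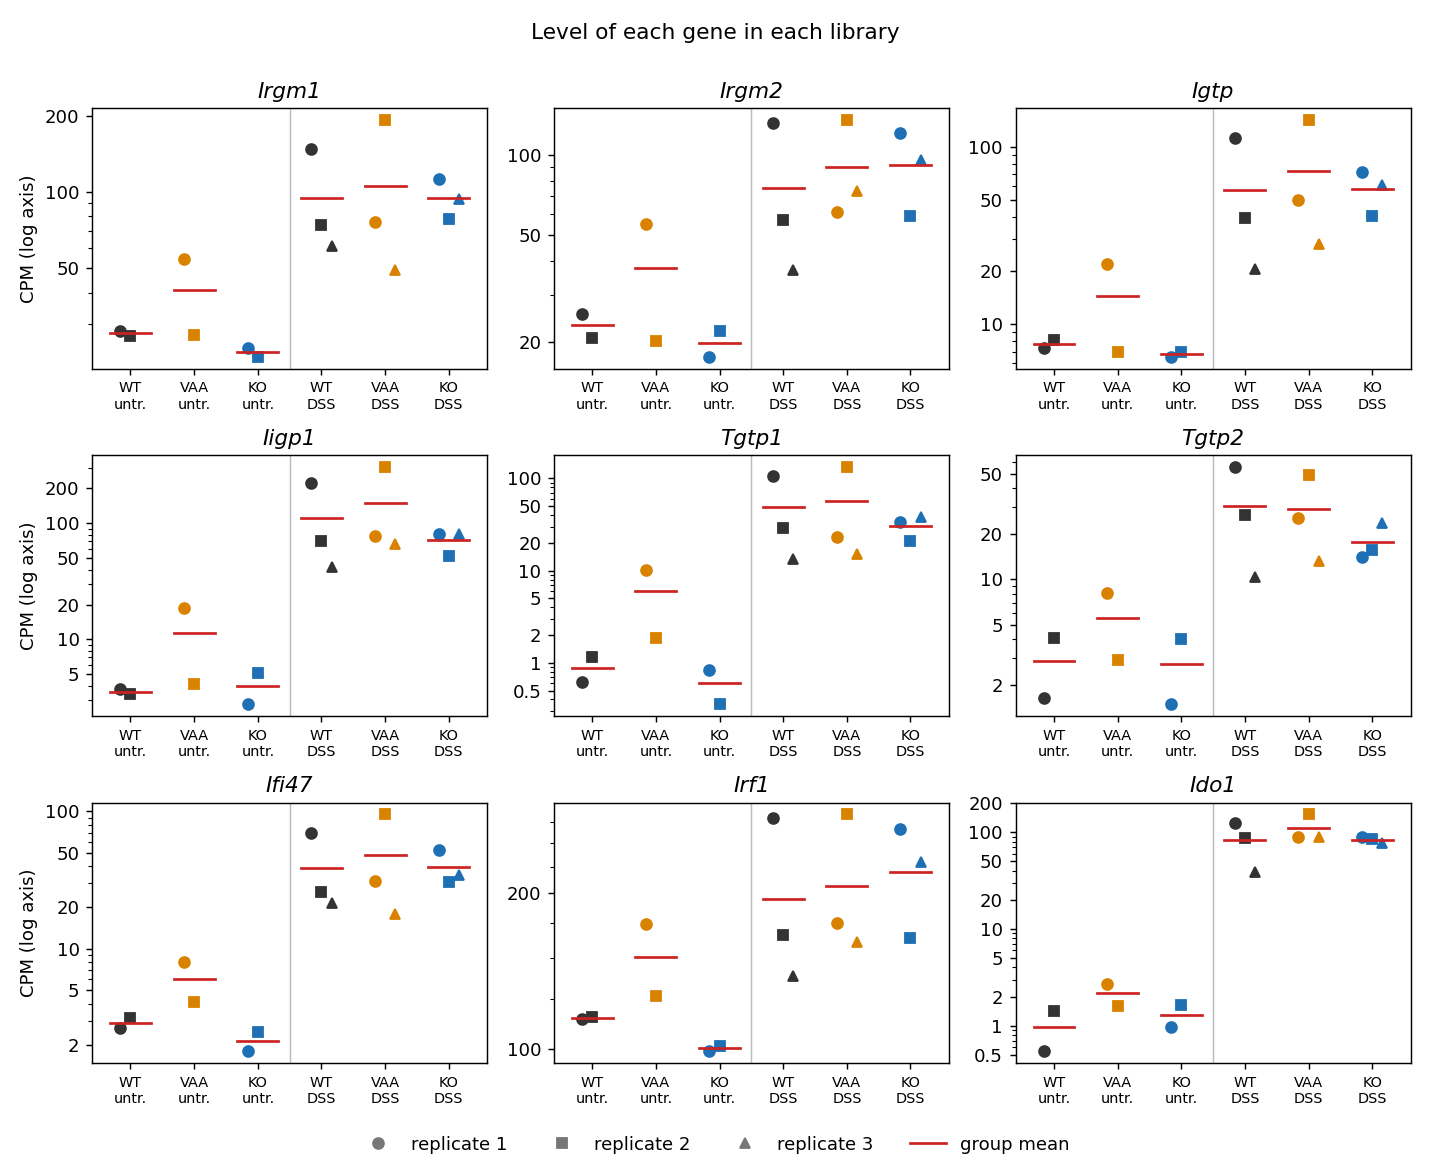
Level of each of the 9 genes in each of the 15 libraries, in CPM on log axes that differ between panels. Points are libraries, with shape giving the replicate number, and red lines are group means (n = 2 untreated, n = 3 DSS). VAA untreated replicate 1 is the highest untreated point in all 9 panels, and WT DSS replicate 1 and VAA DSS replicate 2 are the 2 highest DSS points in all 9.

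*Irf1* had the highest untreated level of the set and the smallest change. The gene lies at chr11:53770014-53778374 on the plus strand of mm10 and has 10 exons in its longest transcript. Untreated libraries had 114 and 115 CPM in WT, 174 and 127 CPM in VAA, and 99.0 and 101 CPM in KO. After DSS the values were 280, 166 and 138 CPM in WT, 175, 284 and 161 CPM in VAA, and 267, 164 and 230 CPM in KO. WT and KO groups did not overlap between treatments, whereas VAA untreated replicate 1 stood above VAA DSS replicate 3. Averaged over genotypes *Irf1* rose 1.73-fold (95% interval 1.32 to 2.25), by 0.79 ± 0.18 (SE) on the log2 scale, edgeR Benjamini-Hochberg adjusted p = 0.0032. Within genotypes only the KO change passed, at 1.14 ± 0.31 (adjusted p = 0.037), and the WT and VAA values of 0.76 ± 0.31 and 0.46 ± 0.31 had adjusted p of 0.085 and 0.33.

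The regulators *Irgm1* and *Irgm2* were present in untreated colon and rose about equally on average. *Irgm1* (chr11:48861968-48871683, minus strand) had 28.2 and 27.0 CPM in WT, 54.6 and 27.2 CPM in VAA and 24.3 and 22.3 CPM in KO untreated. Its DSS values were 148, 74.2 and 61.4 CPM in WT, 75.9, 192 and 49.0 CPM in VAA, and 113, 78.2 and 93.9 CPM in KO. Every WT and KO DSS library exceeded every untreated library of its genotype, whereas VAA DSS replicate 3 lay below VAA untreated replicate 1. *Irgm1* rose 3.30-fold (2.11 to 5.17) over genotypes, by 1.72 ± 0.30 log2 units (edgeR Benjamini-Hochberg adjusted p = 0.00049). The effect was 1.77 ± 0.52 in WT, 1.37 ± 0.51 in VAA (adjusted p = 0.076, not passing) and 2.02 ± 0.53 in KO.

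*Irgm2* (chr11:58199618-58222782, plus strand) had 25.5 and 20.7 CPM in WT, 55.4 and 20.1 CPM in VAA and 17.6 and 21.9 CPM in KO untreated. After DSS it had 132, 57.2 and 37.2 CPM in WT, 61.4, 135 and 73.2 CPM in VAA, and 121, 59.1 and 95.8 CPM in KO. The groups did not overlap in any genotype, although VAA untreated replicate 1 reached 55.4 CPM and lay within the range of the DSS libraries of WT. *Irgm2* rose 3.30-fold (2.05 to 5.32), by 1.72 ± 0.32 log2 units (edgeR Benjamini-Hochberg adjusted p = 0.00077). In VAA alone the difference was 1.25 ± 0.54 and did not pass (adjusted p = 0.12), against 1.71 ± 0.55 in WT and 2.22 ± 0.57 in KO.

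*Igtp*, the last of the regulators, lies at chr11:58199556-58207591 on the plus strand, within a span that its neighbour *Irgm2* overlaps. Of the 31-base words of its transcripts, 15.9% also occur in *Irgm2*. Untreated levels were 7.31 and 8.14 CPM in WT, 21.8 and 6.98 CPM in VAA and 6.53 and 6.99 CPM in KO. DSS levels were 111, 39.4 and 20.4 CPM in WT, 49.8, 141 and 28.4 CPM in VAA and 72.4, 40.8 and 60.5 CPM in KO, with no overlap within a genotype. *Igtp* rose 6.83-fold (3.47 to 13.4), by 2.77 ± 0.45 log2 units (edgeR Benjamini-Hochberg adjusted p = 0.0003), and passed in each genotype at 2.88 ± 0.79, 2.34 ± 0.76 and 3.10 ± 0.81 in WT, VAA and KO.

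*Iigp1*, an effector on chromosome 18 (60376027 to 60392634, plus strand), reached the highest CPM of the IRGs in single libraries. Untreated values were 3.76 and 3.36 CPM in WT, 18.7 and 4.17 CPM in VAA and 2.78 and 5.14 CPM in KO. After DSS they were 223, 70.4 and 42.0 CPM in WT, 78.0, 304 and 66.7 CPM in VAA, and 80.5, 52.9 and 80.6 CPM in KO. All 9 DSS libraries were above all 6 untreated ones. *Iigp1* rose 19.4-fold (8.69 to 43.4), by 4.28 ± 0.54 log2 units (edgeR Benjamini-Hochberg adjusted p = 3.6e-05). In WT it rose by 4.97 ± 0.97, in VAA by 3.69 ± 0.88 and in KO by 4.18 ± 0.94.

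*Tgtp1* (chr11:48985327-48994172) and *Tgtp2* (chr11:49057194-49064206), both on the minus strand, are near-identical effector genes. Of their 31-base words, 83.2% of those in *Tgtp1* and 89.2% of those in *Tgtp2* are found in the other, so the split of reads between them is uncertain. *Tgtp1* had 0.615 and 1.14 CPM in WT, 10.2 and 1.87 CPM in VAA and 0.840 and 0.357 CPM in KO untreated, and 105, 28.7 and 13.5 CPM in WT DSS. VAA DSS had 23.3, 132 and 15.1 CPM of *Tgtp1* and KO DSS 33.3, 21.1 and 37.7 CPM. *Tgtp2* had 1.64 and 4.10 CPM in WT, 8.15 and 2.89 CPM in VAA and 1.49 and 3.99 CPM in KO untreated. Its DSS levels were 55.2, 26.6 and 10.3 CPM in WT, 25.5, 49.0 and 13.1 CPM in VAA and 14.1, 15.5 and 23.6 CPM in KO. Neither gene overlapped between treatments within a genotype. *Tgtp1* made up 8.20 to 55.6% of the pair's counts in untreated libraries and 47.7 to 73.0% in DSS libraries.

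Over genotypes *Tgtp1* rose by 4.88 ± 0.73 log2 units (29.4-fold, 9.93 to 87.3) and *Tgtp2* by 2.84 ± 0.45 (7.14-fold, 3.64 to 14.0), with edgeR Benjamini-Hochberg adjusted p of 0.00014 and 0.00024. The 2 genes' counts added together rose by 3.72 ± 0.57 (adjusted p = 0.00018), a value that does not depend on how reads were divided between them. The summed effect passed in WT (4.41 ± 1.02), VAA (2.88 ± 0.91) and KO (3.86 ± 1.01).

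*Ifi47*, an effector that lies at chr11:49076587-49096974 on the plus strand beside the *Tgtp* genes, had 2.66 and 3.16 CPM in WT, 8.01 and 4.09 CPM in VAA and 1.81 and 2.50 CPM in KO untreated. After DSS it had 69.0, 25.7 and 21.6 CPM in WT, 31.3, 94.9 and 17.9 CPM in VAA and 52.3, 30.8 and 34.2 CPM in KO. Each DSS library was above each untreated one. *Ifi47* rose 12.4-fold (6.52 to 23.5), by 3.63 ± 0.43 log2 units (edgeR Benjamini-Hochberg adjusted p = 2.2e-05), with 3.73 ± 0.75 in WT, 2.98 ± 0.70 in VAA and 4.18 ± 0.78 in KO.

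*Ido1* had the largest change of the 9 and went from near absence to a level of the same order as the IRGs. It lies at chr8:24584136-24597009 on the minus strand, has 10 exons in its longest transcript, and shares none of its 31-base words with another gene. Untreated libraries had 0.547 and 1.41 CPM in WT, 2.72 and 1.62 CPM in VAA and 0.970 and 1.64 CPM in KO. DSS libraries had 124, 87.6 and 38.9 CPM in WT, 89.3, 153 and 89.6 CPM in VAA and 88.6, 85.4 and 77.5 CPM in KO. The lowest DSS library, at 38.9 CPM, was far above the highest untreated one. *Ido1* rose 64.8-fold (39.8 to 106), by 6.02 ± 0.33 log2 units (edgeR Benjamini-Hochberg adjusted p = 3.6e-08), and by 6.39 ± 0.59, 5.65 ± 0.54 and 6.01 ± 0.57 in WT, VAA and KO.

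Per kilobase of longest transcript, *Irf1* was the most abundant of the set in both states, at 57.0 ± 12.9 CPM per kb (SD, n = 6) untreated and 97.0 ± 27.1 (n = 9) in DSS. *Ido1* followed in DSS at 55.9 ± 18.9 CPM per kb, from 0.896 ± 0.445 untreated. *Iigp1*, *Igtp*, *Irgm1*, *Irgm2* and *Ifi47* came next in DSS, with means from 35.6 ± 28.8 down to 23.7 ± 14.4 CPM per kb, and did not differ from their neighbours beyond their SDs. *Tgtp1* and *Tgtp2* had 16.2 ± 15.1 and 9.21 ± 5.69 CPM per kb. Their place in the order rests on the uncertain split of reads between them, and *Tgtp1* was within the SDs of *Ifi47*. Untreated, *Irgm1* and *Irgm2* followed *Irf1* at 7.99 ± 3.11 and 7.61 ± 4.03 CPM per kb, also within their SDs of each other.

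DSS against untreated colon was tested in each genotype to ask how the set responded to colitis. In WT, 8 of the 9 genes were called higher, *Irf1* being the exception, where 14.1% of all tested genes were called higher. In VAA 6 of 9 were called higher against 10.9% of all genes, and *Irgm1*, *Irgm2* and *Irf1* did not pass. In KO 9 of 9 were called higher against 5.59% of all genes, and over the mean of the genotypes 9 of 9 against 22.5%. No member was called lower, against 12.5% of all genes in WT, 9.54% in VAA, 5.06% in KO and 20% over genotypes. The members' median log2 fold change was 3.41 in WT, 2.39 in VAA, 3.10 in KO and 2.84 over genotypes, with medians over all tested genes of -0.01, 0.06, 0.00 and 0.01. Every DSS library was above every untreated library of its genotype for 9 of 9 genes in WT (31.9% of all genes), 7 of 9 in VAA (21%) and 9 of 9 in KO (24.1%).

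With 2 untreated libraries per genotype, the single-genotype counts moved when 1 library was left out. In WT the count called went from 8 to 3 when untreated replicate 1 of WT was left out, to 4 for its untreated replicate 2, and to 5 for its DSS replicate 1. In VAA it went from 6 to 3 for VAA untreated replicate 1, to 1 for VAA untreated replicate 2, and to 3 for either VAA DSS replicate 2 or WT DSS replicate 2. In KO it went from 9 to 1 for KO untreated replicate 1, to 2 for KO untreated replicate 2, and to 4 for KO DSS replicate 1 or 3. With sex as a covariate 6, 4 and 4 genes were called in WT, VAA and KO, and without both male libraries 3, 4 and 1. The mean over genotypes kept 9 of 9 called in each of these fits, and *Ido1* was called in all 24 alternative fits in each genotype.

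**Figure D2:**
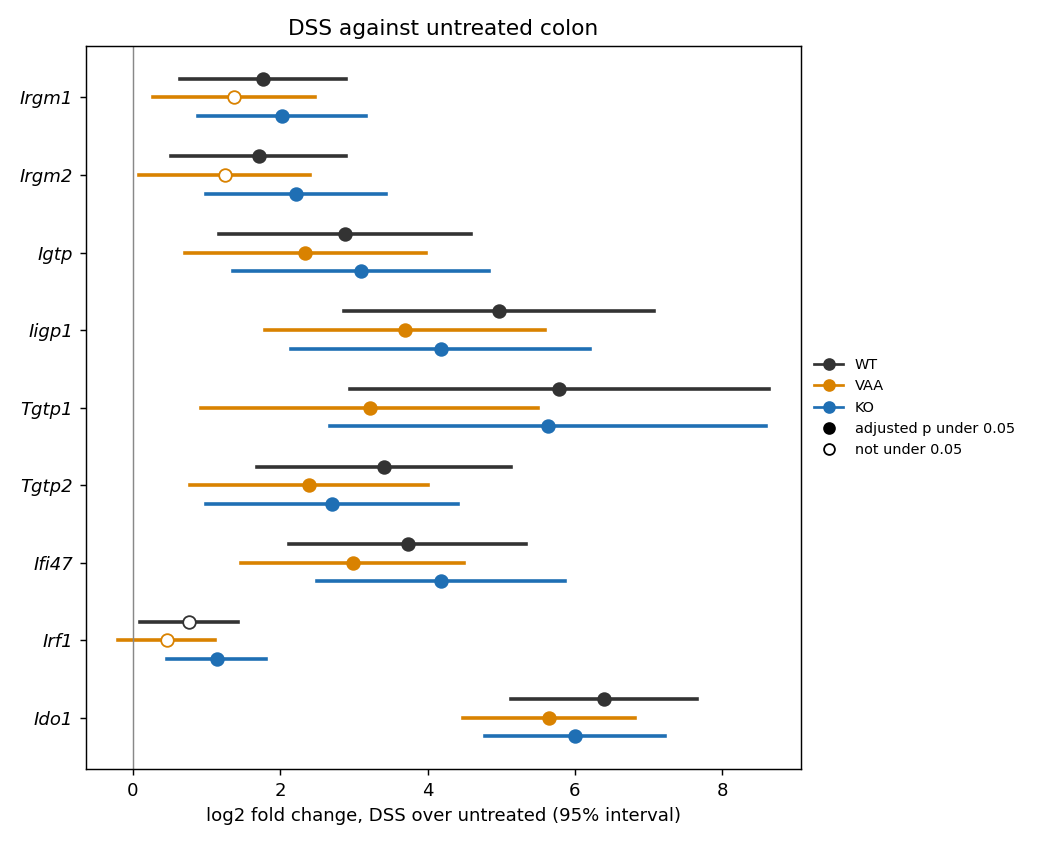
Log2 fold change of DSS over untreated for each gene in each genotype, with 95% intervals from the edgeR fit over 15 libraries. Filled points had an adjusted p under 0.05. *Ido1* has the largest estimate in each genotype and *Irf1* the smallest, and the intervals of the 3 genotypes overlap for every gene.

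The difference of the DSS effects between genotypes was tested directly, since the counts of 8, 6 and 9 do not compare the genotypes. None of the 9 genes passed for KO against WT, VAA against WT or KO against VAA (edgeR), where 0%, 0% and 0.0687% of all genes did. At an unadjusted p under 0.05 the number of members was 0 in all 3, and DESeq2 and limma called 0. The interval for *Ido1* ran from -2.16 to 1.38 on the log2 scale for KO minus WT and from -2.43 to 0.94 for VAA minus WT. The widest was that of *Tgtp1* for KO minus WT, at -0.15 ± 2.12 (-4.71 to 4.42), and its VAA minus WT difference was -2.57 ± 1.60 (-6.03 to 0.88). A difference of DSS effects anywhere inside these intervals remained compatible with these libraries.

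Among the DSS libraries alone, the genotype comparisons asked whether the level in colitis differed with *Tert*. Of the 9 genes, 0 were called in KO against WT (5.67% of all genes called), 0 in VAA against WT (0.00572%) and 0 in KO against VAA (15.4%), and 0 at an unadjusted p under 0.05 in each (edgeR). DESeq2 and limma also called 0 in each. *Ido1* in KO against WT differed by 0.01 ± 0.34 log2 units, with an interval of 0.602 to 1.68-fold, the narrowest of the IRGs and *Ido1*. The intervals for *Irf1* and *Irgm1* were 0.755 to 1.69-fold and 0.527 to 1.92-fold. *Tgtp2*, *Tgtp1* and *Iigp1* had the lowest KO to WT estimates, at -0.79 ± 0.60, -0.68 ± 0.81 and -0.65 ± 0.66 log2 units (edgeR adjusted p from 0.49 to 0.68). The estimate for *Iigp1* in KO against VAA was -1.07 ± 0.66 (-2.49 to 0.35, edgeR Benjamini-Hochberg adjusted p = 0.33). These 3 comparisons share libraries with one another.

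The median log2 difference of the 9 genes under DSS was 0.01 for KO against WT, 0.26 for VAA against WT and -0.34 for KO against VAA, with medians over all genes of -0.01, 0.03 and -0.01. Among untreated libraries 0 of 9 genes and 0% of all genes were called in each genotype pair. At an unadjusted p under 0.05 only *Tgtp1* in KO against VAA was below, at -3.32 ± 1.46 log2 units, edgeR adjusted p = 1. In VAA against WT the estimates were above 0 for all 9 genes, from 0.39 ± 0.33 for *Irf1* to 2.79 ± 1.38 for *Tgtp1*, and VAA untreated replicate 1 was above replicate 2 for all 9.

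**Figure D3:**
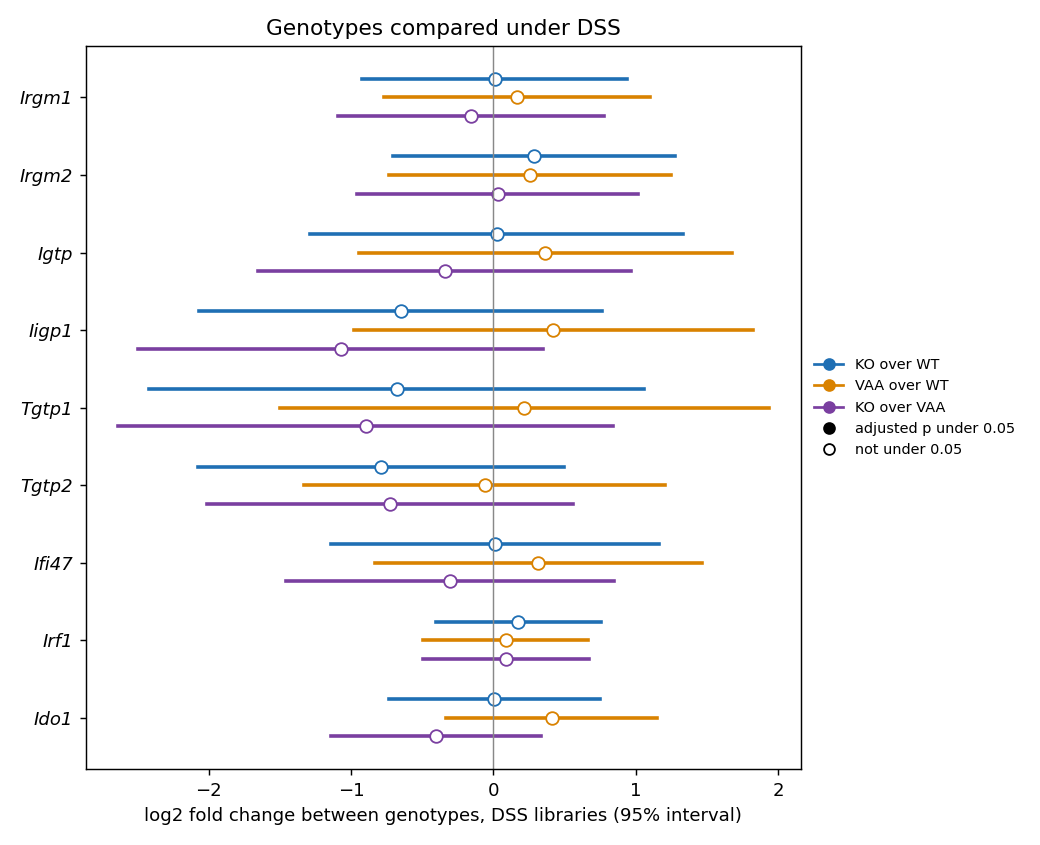
Log2 difference between genotypes among the DSS libraries for each gene, with 95% intervals from the edgeR fit. Every interval includes 0; those of *Ido1*, *Irf1* and *Irgm1* are the narrowest and that of *Tgtp1* the widest.

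Libraries of 1 group differed from one another, and the order of the libraries was similar for all members. WT DSS replicate 1 and VAA DSS replicate 2 were the 2 highest of 9 DSS libraries for 9 of 9 genes. WT DSS replicate 3 was the lowest for 7 genes, and VAA DSS replicate 3 for *Irgm1* and *Ifi47*. The highest WT DSS library exceeded the lowest by 2.02-fold for *Irf1* to 7.80-fold for *Tgtp1*, and in VAA by 1.71-fold for *Ido1* to 8.77-fold for *Tgtp1*. In KO the same ratio ran from 1.14 for *Ido1* to 2.04 for *Irgm2*. Over the 9 DSS libraries the coefficient of variation was 93.8% for *Tgtp1*, 81.1% for *Iigp1*, 33.8% for *Ido1* and 27.9% for *Irf1*, with the others from 42.2 to 63.7%.

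*Ifng* was also highest in WT DSS replicate 1 (44 counts, 3.21 CPM) and VAA DSS replicate 2 (30 counts, 1.73 CPM). VAA DSS replicate 3 had 0 *Ifng* counts and 89.6 CPM of *Ido1*. Summed T and NK cell markers were 29.6 and 28.9 CPM in the 2 high libraries. They were 27.1 and 20.7 CPM in WT DSS replicates 2 and 3 and 23.3 and 13.7 CPM in VAA DSS replicates 1 and 3. Within WT and VAA DSS the 2 high libraries were thus also highest for these markers. The KO DSS libraries were above them, at 34.6 to 37.8 CPM, unlike for the members. Summed myeloid markers were 632 and 658 CPM in the 2 high libraries, 474 to 908 CPM in the other WT and VAA DSS libraries and 262 to 353 CPM in KO. Over genotypes 9 of 10 T and NK cell markers and 9 of 10 myeloid markers were called higher in DSS, against 22.5% of all genes. In WT, VAA and KO alone, 7, 2 and 7 of the T and NK cell markers were called higher. For the myeloid markers the counts were 6, 5 and 3, where 14.1%, 10.9% and 5.59% of all genes were called higher. In DSS libraries the only one of these markers at 0 was *Ncr1* in WT DSS replicate 3. The part of immune cell number in these levels was not tested, and in whole colon a change in the number of cells of a type cannot be told apart from a change in RNA per cell.

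VAA untreated replicate 1 was the highest of the 6 untreated libraries for 9 of 9 genes. Its level over the mean of the other 5 was 10.6-fold for *Tgtp1*, 4.88-fold for *Iigp1*, 3.03-fold for *Igtp*, 2.20-fold for *Ido1* and 1.57-fold for *Irf1*. That library had 0 *Ifng* counts and a T and NK cell marker sum of 12.4 CPM, within the 9.24 to 15.2 CPM of the others, with *Ncr1* at 0. Its myeloid sum of 174 CPM also lay within the untreated range of 120 to 245 CPM.

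**Figure D4:**
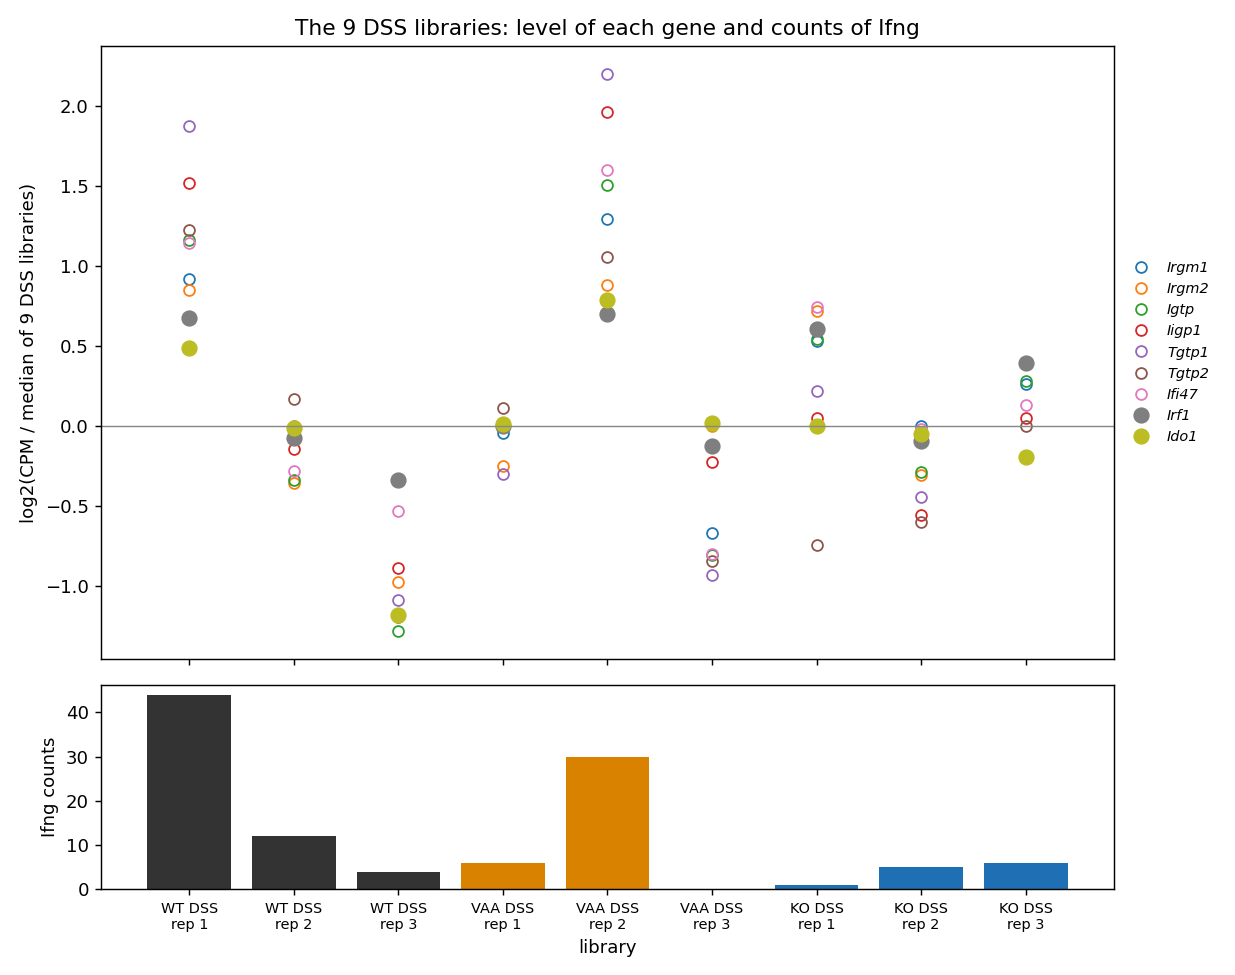
Upper panel, log2 of each gene's CPM in each of the 9 DSS libraries over its median across them; lower panel, *Ifng* counts in the same libraries as bars. WT DSS replicate 1 and VAA DSS replicate 2 are above the other 7 for all 9 genes, and *Tgtp1* and *Iigp1* spread more than *Ido1* and *Irf1*. The *Ifng* bars are also highest there, at 44 and 30 counts.

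Other genes of the family and pathway were read from lists written by role, with earlier results of these data known. Of 9 other IRG family genes tested, 7 were called higher over genotypes and 0 lower, with a median of 1.14. Over all genes 22.5% were called higher in that comparison and 20% lower, with a median of 0.01. *Gm12250*, an IRG family gene, rose by 4.08 ± 0.55 log2 units, *Gm4951* by 2.77 ± 0.42 and *Gm12185* by 2.15 ± 0.44, whereas *Irgq*, a distant relative, had 0.14 ± 0.12 and did not pass. All 11 guanylate binding protein genes, whose products are the larger interferon-induced GTPases, were called higher, with a median of 2.50. *Gbp2* rose by 2.71 ± 0.37 and *Gbp4* by 2.59 ± 0.30. All 15 other genes known to be induced by interferon gamma were called higher (median 2.03), among them *Nlrc5*, a regulator of MHC class I genes, by 3.45 ± 0.30 and *Ubd*, a ubiquitin-like modifier, by 4.28 ± 0.45.

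Upstream, 10 of 14 receptor and signalling genes were called higher and 0 lower, with a median of 0.40. The feedback inhibitors *Socs1* and *Socs3* rose by 3.00 ± 0.34 and 3.83 ± 0.26. The receptor genes *Ifngr1* and *Ifngr2* had 0.08 ± 0.11 and -0.04 ± 0.08 and did not pass. Of 9 interferon regulatory factor genes, 4 were called higher and 1 lower. Besides *Irf1* those higher were *Irf5*, *Irf8* and *Irf9*, at 1.09 ± 0.21, 0.77 ± 0.12 and 0.49 ± 0.18. *Irf2*, whose product competes with IRF1 for its sites, fell by 0.51 ± 0.10 on the log2 scale. Of 11 genes for cytokines and factors that drive interferon gamma production, 7 rose and 2 fell. *Il12rb1*, a receptor chain for interleukin 12, rose by 3.60 ± 0.38, and *Il15* fell by 1.70 ± 0.13.

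Some pathway genes differed between genotypes under DSS where the members did not pass. *Gbp5* was lower in KO than in WT by -1.31 ± 0.28 log2 units (edgeR Benjamini-Hochberg adjusted p = 0.02), with 29.9, 21.9 and 24.9 CPM in KO against 100, 54.8 and 35.8 CPM in WT. It was the only guanylate binding protein gene of 11 called in KO against WT, and *Gbp5*, *Gbp9* and *Gbp11* were called lower in KO than in VAA. Of all genes 2.46% were called lower in KO than in WT, 3.21% higher, and 9.41% lower in KO than in VAA. *Socs3* was lower in KO than in WT by -1.94 ± 0.34 (adjusted p = 0.0087). Of the 9 interferon regulatory factor genes, 3 were called higher in KO than in WT, *Irf2* and *Irf7* among them, by 0.61 ± 0.15 and 1.42 ± 0.35. Of the 10 myeloid markers 4 were called lower in KO than in WT, and 3 of 10 epithelial markers were higher. Their part in these differences was not tested.

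The IRGs act with the ATG8 conjugation machinery of autophagy. Of 14 such genes tested, 4 were called higher and 5 lower, with a median of -0.11, where 22.5% of all genes were called higher and 20% lower. *Becn1* and *Atg3* rose by 0.25 ± 0.05 and 0.26 ± 0.07, and *Map1lc3a* and *Atg7* fell by 0.70 ± 0.15 and 0.35 ± 0.09 on the log2 scale. In the tryptophan and kynurenine list around *Ido1*, 5 of 15 genes were called higher and 4 lower, with a median of 0.05. The counts of both lists were near those shares of all genes, as were the 1 higher and 1 lower of 5 aryl hydrocarbon receptor pathway genes. *Slc7a5*, a transporter of large neutral amino acids, rose by 2.45 ± 0.26. *Kynu* (kynureninase), *Kmo* (kynurenine monooxygenase) and *Haao*, enzymes further along the pathway, rose by 0.79 ± 0.18, 0.65 ± 0.21 and 1.87 ± 0.59. *Tdo2* and *Ido2*, whose products catalyse the same first step as IDO1, had -0.41 ± 0.29 and 0.79 ± 0.36 and did not pass (edgeR adjusted p of 0.28 and 0.094). *Tph1*, which directs tryptophan to serotonin, fell by 0.80 ± 0.15 on the log2 scale. In the aryl hydrocarbon receptor list *Nqo1* rose by 0.82 ± 0.18 and *Ahr* fell by 0.32 ± 0.09.

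Genes with levels most like the members' were ranked by Pearson correlation of log2 CPM. Over 15 libraries, which share the DSS and untreated difference, the closest to the mean of the 7 IRGs were *Gm12250* (0.99), *Apol10b* (0.98), *Gbp6* (0.98), *Gbp2* (0.98) and *Gbp3* (0.97). For *Irf1* they were *Dtx3l* (0.97), *Parp14* (0.97), *Slfn5* (0.96), *Gbp7* (0.95) and *Gm12185* (0.95). For *Ido1* they were *Slc35f6* (0.99), *Ly6a* (0.99), *Clca4b* (0.99), *S100a16* (0.98) and *H2-Q6* (0.98). Among the 9 DSS libraries alone *Gbp3* was closest to *Ido1* (0.97), followed by *Slurp1* (0.92). Between pairs of members over these 9 libraries the correlation ran from 0.64 (*Irgm2* and *Tgtp2*) to 0.99 (*Irgm1* and *Ifi47*), and *Ido1* had 0.70 with *Irgm1* and 0.84 with *Iigp1*.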

How the data were processed

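Per the submitters' processing notes, kallisto 0.46 and mm10 were used to make the values that the authors deposited, which are estimated counts by gene symbol and log2 CPM. No source used here names the transcript annotation. Values of log2 CPM recomputed from the counts (prior count 2) differed from the deposited log2 values by at most 0.018. The tables held 0 columns from other samples. The members and gene lists were chosen with earlier results of these data known.

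The counts were fitted in edgeR 4.0.16 under R 4.3.3 (quasi-likelihood, trimmed mean of M values, edgeR's expression filter, 1 mean per group over 15 libraries, 9 residual degrees of freedom). Genes passed at a Benjamini-Hochberg adjusted p under 0.05 over the 17477 tested in each of 13 comparisons. CPM values were scaled by the same factors. Alternatives were DESeq2 1.42.0 (its test, and its size factors), limma 3.58.1 on the deposited log2 CPM, no filter, a replicate block, a fit of only the groups compared, sex from *Ddx3y* as a covariate, leaving out each library, and adding the *Tgtp1* and *Tgtp2* counts. Named genes were the members, the 4 genes of each list with the smallest p over genotypes, *Ifng*, *Gm12250*, *Gbp2* and *Kmo*, and the 5 closest by correlation. *Irgq*, *Ifngr1*, *Ifngr2*, *Haao*, *Tdo2*, *Ido2*, *Irf7*, *Gbp11*, *Ncr1*, *Ddx3y* and *Tert* were named after their values were seen. Not every gene the rule names is reported here. Gene positions are from GENCODE on mm10. Replicates differed by more than counting error.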

Additional observations from a re-analysis of the deposited data

How the results depend on the processing

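Over the mean of genotypes 9 of 9 genes were called in every alternative, and 0 in every genotype comparison and difference of DSS effects. The count per genotype depended on the libraries: leaving out 1 library gave 3 to 9 called in WT, 1 to 7 in VAA and 1 to 9 in KO. A group left with 1 library was assumed to vary like the others. With sex as a covariate 4 were called in KO, and with only the groups compared 1 in VAA. Chosen after seeing the data, a fit without both male libraries called 3 in WT and 1 in KO. The cause was not tested. Also chosen after seeing the data was a fit without VAA untreated replicate 1 and VAA DSS replicate 3 together. These fits are among the 24 alternative fits. Of 776 alternative values for single genes that were called, 670 kept their call, 106 lost it and 0 changed direction.

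Replicate numbers were not treated as pairing the samples. The correlation of residuals between libraries with equal numbers ran from -0.16 to 0.31 over 33 pairs, with 8 over 0.1. Libraries with unequal numbers were not compared, so these values do not decide whether the numbers pair the samples. With the replicate block 8 genes were called in WT, 7 in VAA, 9 in KO and 9 over genotypes, and 0 in each other comparison.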
